A study of Mus musculus with 15 samples.

Results

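The podocyte fraction of the kidney was compared between 8 aged male mice and 5 young male mice, with the aged mice pooled whichever antibody they had been given. These 13 libraries are part of a table of 15, and each library is RNA-seq of 1 mouse. No label names the columns of the table, so the group of each column rests on the mouse numbers shown in the study's plot of principal components. All mice were C57BL/6J. Young mice were 4 months old and were not injected. Aged mice were 21 months old and received weekly intraperitoneal injections at 12 mg/kg for 8 weeks, 4 of them with the anti–PD-1 antibody RMP1-14 (aPD1ab) and 4 with the control antibody 2A3 of the same isotype (IgG2a). The sample titles of the aPD1ab mice give 47 days. Since only aged mice were injected, age and injection cannot be told apart. Cells were taken from digested kidney cortex with rabbit antibodies to nephrin and magnetic beads, so nephrin is both a gene of interest and the handle of the sort. A gene was described when all 8 aged values lay above all 5 young values, or all below, in counts per 1000000 (CPM), scaled by TMM, a method that sets libraries to a common level. Of 46078 genes in the table, 367 lay above and 483 below. Of 16034 genes with enough counts to be tested, 353 lay above, which is 2.20% of those tested, and 459 lay below, which is 2.86%. The other 14 above and 24 below were too low to be tested. Genes picked because they stood apart were chosen by this very contrast, so their levels are a description with no p-value. Tests are given for gene lists and for single genes that did not stand apart. The lists were not drawn by the rule, but they were chosen with earlier results of these data known. Their called members, and the summed levels of several marker lists, include genes that stood apart, so these tests are not independent of the rule.

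Podocytes are the epithelial cells that wrap the capillaries of the glomerulus, the filter of the kidney. Their foot processes are joined by the slit diaphragm, built around nephrin, and rest on a basement membrane of type IV collagen and laminin. Mesangial cells hold the capillary loops together and, like pericytes and smooth muscle, carry a contractile apparatus. The kidney also holds resident macrophages, and plasma cells secrete immunoglobulin. PD-1 is an inhibitory receptor of immune cells with the ligands PD-L1 and PD-L2. A fraction sorted from a digest can hold cells other than podocytes, and in such a bulk sample fewer cells of a type and less RNA per cell cannot be told apart.

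Library totals ran from 21962193 to 27685122 counts in young mice and from 19912969 to 32717100 in aged mice. On the first principal component 1 aged IgG2a library, replicate 1, lay at -16.3 and the other 3 lay between 70.6 and 82.9, while young libraries lay between -40.7 and -23.9. Replicate numbers here only name columns. On the second component young libraries lay between 25.3 and 45.2 and aged libraries between -54.7 and 9.70, without overlap. Mitochondrially encoded transcripts took 23.1% to 30.4% of counts in young, 29.3% to 54.9% in aged IgG2a and 20.4% to 38.5% in aged aPD1ab libraries. In edgeR's quasi-likelihood test 791 genes were higher in aged mice (4.93% of those tested) and 737 were lower (4.60%) at an adjusted p under 0.05. Under upper quartile scaling 62.2% of calls were higher, against 51.8% here. Leaving out any 1 young library lowered both counts, to between 187 and 524 higher and between 181 and 460 lower, with the fewest without young replicate 4. Without aged aPD1ab replicate 2 there were 1351 higher and 992 lower, and without aged IgG2a replicate 1 there were 1080 and 1004.

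Several of the genes with the widest gap above young are known from macrophages. Cd5l (ENSMUSG00000015854, chr3:87357881-87371073), a secreted scavenger-receptor protein of tissue macrophages, stood at 0.165, 0, 0.0793, 0 and 0.149 CPM in the 5 young libraries, 10 counts in all. Its aged values ran from 8.84 to 53.2 CPM with a median of 32.0, and the aged mean was 414 times the young mean. No aged library came near the young level. Fcna, the lectin ficolin A that starts the lectin pathway of complement, was read at 0.248, 0.458, 0.476, 0 and 0.261 CPM in young mice. Aged libraries gave 6.80 to 19.8 CPM with a median of 10.9, a ratio of means of 40.4. Vsig4 (ENSMUSG00000044206, chrX:96247203-96293438), a macrophage receptor for complement C3 fragments, had 2 counts over all young libraries, and no ratio is given for it. In the aged libraries it reached 0.840 to 28.3 CPM with a median of 1.42, and the highest value belonged to aPD1ab replicate 2. Clec1b, a C-type lectin receptor that binds podoplanin, had 0.993, 0.915, 0.992, 0.838 and 0.746 CPM in young and 3.69 to 23.4 CPM with a median of 7.87 in aged mice.

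The genes with the widest gap above young also held Trem2, Gpnmb, Apoe, Spic, Blvrb and Lgals3. Trem2 (ENSMUSG00000023992, chr17:48346401-48354147), a receptor that senses lipids on macrophages, was at 4.18, 4.03, 3.53, 3.55 and 5.22 CPM in young mice and at 12.0 to 55.1 CPM with a median of 24.0 in aged mice, a ratio of 6.98. Gpnmb, a lysosome-associated glycoprotein of phagocytes, had 1.16, 0.885, 0.476, 0.503 and 0.895 CPM in young against 4.68 to 25.9 CPM with a median of 14.1 in aged libraries, a ratio of 19.2. Apoe, the lipid carrier apolipoprotein E, was abundant in both groups. Its young values were 607, 563, 504, 313 and 578 CPM and its aged values ran from 1101 to 3356 CPM with a median of 1680.0, which gives a ratio of 3.85. Spic, a transcription factor needed for the macrophages that recycle iron, stood at 6.16, 6.99, 3.69, 2.05 and 7.34 CPM in young and 14.4 to 82.7 CPM with a median of 29.4 in aged libraries. Blvrb, the enzyme biliverdin reductase B of heme breakdown, stood less far above, with a ratio of 2.37 between 9.89 to 14.5 CPM in young and 23.4 to 36.7 CPM in aged mice. Lgals3, which encodes galectin-3, had a narrow young range of 90.9 to 103 CPM and an aged range of 157 to 343 CPM with a median of 202.

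The other genes with wide gaps above young that are described had varied roles. Ccr3, the eotaxin receptor of eosinophils, had 10 counts over the young libraries, at 0.165, 0, 0.0793, 0.0671 and 0.0746 CPM, and 1.70 to 6.53 CPM with a median of 3.54 in aged mice. Itgad, the integrin subunit alpha D of leukocytes, stood at 0.290, 0.305, 0.159, 0.0671 and 0.224 CPM in young and 1.67 to 3.32 CPM with a median of 2.18 in aged libraries. Adamdec1, a metalloprotease-like protein of macrophages and dendritic cells, had 0.662, 0.793, 1.90, 0.402 and 0.224 CPM in young mice and 9.92 to 30.7 CPM with a median of 18.6 in aged mice. In each of these 3 genes the lowest aged library was over 2-fold above the highest young one. Slpi, a secreted inhibitor of leukocyte proteases, was at 0.952, 0.336, 0.913, 0.704 and 0.746 CPM in young and 3.42 to 11.8 CPM with a median of 8.66 in aged libraries, a ratio of 11.7. Grem1, an extracellular antagonist of bone morphogenetic proteins, had 0.165, 0.122, 0.159, 0.872 and 0.224 CPM in young and 1.88 to 29.4 CPM with a median of 6.00 in aged libraries.

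**Figure D1:**
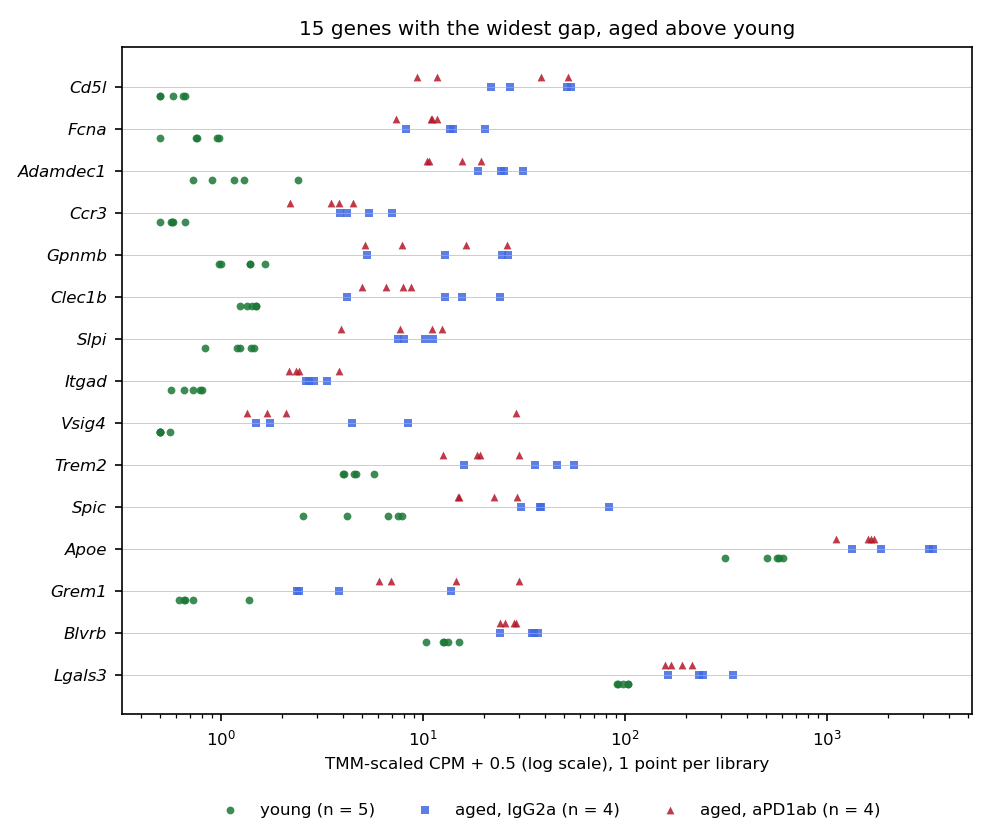
Each row is 1 of the 15 genes with the widest gap above young, and each point is 1 library, on a log axis of CPM plus 0.5. Circles are 5 young mice, squares 4 aged IgG2a mice and triangles 4 aged aPD1ab mice, and in every row all young points lie to the left of all aged points.

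Promoter sequence was set beside these genes because they stood apart together. The letters GAGGAA, the core that the macrophage factor PU.1 binds, or TTCCTC on the other strand, were looked for in the 250 bases before each RefSeq start (GRCm38.p6). The motif was chosen with the genes known. It was found in 7 of 16 windows of the 15 widest-gap genes above young, 13 of which had a window, and in 1 of 13 windows of the widest-gap genes below. Of all 32851 windows 23.3% held it, and the shares were 25.8% for all genes above and 21.96% for all genes below, both close to that background, with windows for 261 and 340 of these genes. The windows of Cd5l (chr3:87357631-87357880, plus strand), Trem2 (chr17:48346151-48346400, plus strand) and Vsig4 (chrX:96293439-96293688, minus strand) are printed 5′ to 3′, with the motif on either strand in capitals. These 3 of the widest-gap genes above young were picked because their windows hold the motif. Of the 13 such genes with a window 6 held it, and windows without it are not shown. A match is only a run of letters and says nothing of whether a factor bound there.
Cd5l: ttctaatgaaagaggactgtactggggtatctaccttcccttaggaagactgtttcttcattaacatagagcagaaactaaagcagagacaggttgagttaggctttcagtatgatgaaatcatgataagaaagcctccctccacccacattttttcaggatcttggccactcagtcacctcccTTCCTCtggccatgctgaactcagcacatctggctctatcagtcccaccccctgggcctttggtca
Trem2: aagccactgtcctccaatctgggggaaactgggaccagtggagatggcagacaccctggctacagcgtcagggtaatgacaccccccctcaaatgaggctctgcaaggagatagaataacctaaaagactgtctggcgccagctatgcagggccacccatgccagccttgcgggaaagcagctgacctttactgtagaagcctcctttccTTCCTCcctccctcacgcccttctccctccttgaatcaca
Vsig4: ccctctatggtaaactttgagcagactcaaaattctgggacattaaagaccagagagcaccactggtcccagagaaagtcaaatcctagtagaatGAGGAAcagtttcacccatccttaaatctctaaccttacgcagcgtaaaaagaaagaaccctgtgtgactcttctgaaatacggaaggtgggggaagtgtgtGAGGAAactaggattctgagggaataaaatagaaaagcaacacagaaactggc

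General markers of macrophages were not called over all 8 aged mice in edgeR's test, while their sum was above the young range in 6 of 8. Of 12 measured markers of macrophages and monocytes, 0 were called and 12 of 12 were positive, with a median log2 difference of 0.85 against 0.01 over all genes tested. In the same list 6 markers had an unadjusted p under 0.05, DESeq2 called 6 and voom called 5, and edgeR without IgG2a replicate 1 or without aPD1ab replicate 2 called 6. A fit over 3 groups called 6 as well. Set against young alone, edgeR called 10 of 12 higher in IgG2a mice and 0 of 12 in aPD1ab mice. Their summed level was 3208 ± 692 CPM in young and 6050.3 ± 2898 CPM in aged libraries, a ratio of 1.89, and the groups overlapped (exact permutation test over libraries, two-sided, adjusted p = 0.11 over 17 lists). Lyz2, lysozyme 2 of myeloid cells, had young values of 871, 1019, 922, 471 and 856 CPM and aged values of 749.9 to 2597 CPM with a median of 1419 (adjusted p = 0.0717, edgeR). The part of macrophage content in the genes above young was not tested.

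Immunoglobulin transcripts were higher in aged mice. Of 12 measured genes for constant regions and the J chain, 7 were called higher and 0 lower, and Ighm, Ighg2b and Ighg2c stood apart. Ighm, the heavy chain of IgM, was at 245, 217, 325, 114 and 288 CPM in young mice and at 382 to 5413 CPM with a median of 3364 in aged mice, a ratio of 14.1. Ighg2b, a heavy chain of IgG, had 3.76, 10.4, 4.32, 6.84 and 6.04 CPM in young and 15.4 to 128 CPM with a median of 61.1 in aged libraries. Ighg2c had young values of 0.165, 2.35, 5.75, 0.0671 and 0.298 CPM and aged values of 7.76 to 108 CPM with a median of 23.2, and young replicate 3 came closest to the lowest aged one. The light chain Igkc, though called, did not stand apart in full. Its young values were 133, 53.9, 122.7, 100 and 173 CPM, its lowest aged value was 169 CPM in aPD1ab replicate 2, and the other aged libraries held 1565 CPM or more. Jchain, which links secreted IgM and IgA, gave 37.6, 12.0, 36.3, 40.2 and 44.3 CPM in young and 16.1 to 756 CPM with a median of 312 in aged mice, again lowest in aPD1ab replicate 2. Summed over 218 variable-region genes, young libraries held 76.7 to 204 CPM and aged libraries 127 to 2676 CPM with a median of 1252, so these groups overlapped. Near-identical variable genes share reads, so single members are not described. Called members of the list of constant regions and J chain numbered 4 without young replicate 4 and 5 with an offset for exon length.

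Plasma cell markers, beside the antibody genes, rose in 4 of 7 measured members (Jchain, Mzb1, Sdc1 and Derl3), and Jchain is in both lists. Without young replicate 4 the count was 2, and without aged aPD1ab replicate 2 it was 6. Their summed level was 185 ± 20.3 CPM in young and 551 ± 221 CPM in aged libraries, a ratio of 2.98 (exact permutation test, two-sided, adjusted p = 0.0264). B cell markers gave 0 calls of 8, with 0 at an unadjusted p under 0.05, 0 by DESeq2 and 0 by voom, and their summed level had a ratio of 1.01. The part of plasma cell content in the immunoglobulin levels was not tested.

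Complement, lysosome and adhesion genes had called members in 1 direction in edgeR's test over all aged mice. Voom called 7 complement genes higher and 2 lower, and 3 adhesion genes higher and 3 lower. With aPD1ab mice alone against young, edgeR called 4 complement genes higher and 1 lower, and 3 adhesion genes higher and 2 lower. The counts that follow are those of edgeR over all aged mice. Of 17 measured complement genes, C1ra, C4b, C5ar1 and Cfp rose and 0 fell. C4b, component 4 of the classical and lectin pathways, was at 8.11, 17.0, 8.57, 6.07 and 9.10 CPM in young and 17.5 to 159.8 CPM with a median of 38.04 in aged mice, so its nearest values differed little. Cfp, properdin of the alternative pathway, had 25.8, 32.6, 18.9, 16.6 and 21.6 CPM in young mice and 32.998 to 100.6 CPM with a median of 66.7 in aged mice. Of 16 genes of cathepsins and other lysosomal proteins 5 rose (Ctsa, Ctsb, Ctsk, Ctsz and Lgmn) and 0 fell. Ctsb, cathepsin B, had 657, 775, 773, 588 and 674 CPM in young and 1004 to 2307 CPM with a median of 1296 in aged libraries, a ratio of 2.02. Leukocyte integrins and adhesion ligands rose in 3 of 15 (Itgad, Vcam1 and Sele). Vcam1, an adhesion molecule that injured tubules also express, stood at 33.4, 36.3, 28.9, 51.6 and 37.9 CPM in young mice and 78.2 to 237 CPM with a median of 117.5 in aged mice. In the inflammasome list Pycard, Il18 and Il1a rose, 3 of 13, and without any 1 of young replicates 1 to 4, or with an offset for exon length, 0 did. Complement calls ran from 1 to 7 and cathepsin calls from 1 to 6 when 1 library was left out. The lowest complement count came without young replicate 3 or 4, and the lowest cathepsin count without young replicate 4.

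Secreted and injury-related genes, some of them also in lists of immune genes, lay above young as well. Of 13 kidney injury genes Lcn2 and Vcam1 rose and 0 fell, and Vcam1 is also in the adhesion list. Lcn2, the siderophore-binding lipocalin 2, had 4.26, 4.55, 5.59, 5.399 and 4.10 CPM in young and 7.52 to 20.3 CPM with a median of 10.5 in aged libraries. Gdf15, a stress-induced cytokine of the TGF-beta family, had 17.9, 14.9, 11.03, 13.2 and 18.7 CPM in young and 24.7 to 68.7 CPM with a median of 48.9 in aged libraries, a ratio of 3.08. Igf1, insulin-like growth factor 1, stood at 7.69, 14.7, 9.20, 7.75 and 7.83 CPM in young mice and at 16.9 to 52.6 CPM with a median of 28.1 in aged mice. Pigr, the receptor that carries IgA and IgM across epithelium, was close at its edge, with 90.1, 137, 95.3, 112 and 77.6 CPM in young and 141 to 365 CPM with a median of 206 in aged libraries. The chemokine Ccl8 stood at 0.745, 4.70, 1.90, 1.34 and 2.91 CPM in young and 4.72 to 40.6 CPM with a median of 18.0 in aged mice, and young replicate 2 lay just under the lowest aged value. Chemokines were called in 2 of 20 (Ccl8 and Cxcl13), both higher, and in 5 without aged IgG2a replicate 1 and 6 without aged aPD1ab replicate 2.

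Cytosolic ribosomal protein genes rose together by a small amount. Of 78 measured members 71 were called higher and 0 lower, with a median log2 difference of 0.62, and 9 stood apart. Rpl41, of the large subunit, had 216, 189, 195, 184 and 224 CPM in young and 249 to 463 CPM with a median of 309 in aged libraries, a ratio of 1.61. Rpl27, also of the large subunit, had 114, 109, 107, 105 and 135 CPM in young and 142 to 248 CPM with a median of 179.9 in aged libraries, a ratio of 1.61. The call count was 8 without young replicate 4, 16 without replicate 3, 27 without replicate 2 and 39 without replicate 1. Calls over all genes fell in the same fits, to 187 higher without young replicate 4 and 253 without replicate 3. The list median lay between 0.49 and 0.69 on the log2 scale over the other fits tried. With libraries scaled by total count alone the median stayed above 0, at 0.37, while the median of all genes moved to -0.20. Mitochondrial ribosomal proteins were called in 3 of 77, all higher, a share no larger than the 4.93% of all genes tested. Voom called 13 of them higher and a fit over 3 groups 10, where these methods called 1514 and 1256 genes higher in all. Set against young alone, 56 mitochondrial ribosomal proteins were called higher in aPD1ab mice and 2 in IgG2a mice. Mrpl23 stood apart at 12.8, 11.7, 13.01, 13.2 and 13.4 CPM in young and 17.9 to 25.7 CPM with a median of 19.8 in aged mice. These genes have short transcripts and many processed pseudogenes, so reads may be split among copies.

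Exon length differed between the genes above and those below. The median length of all exons of a gene was 2399 bases for genes above young, 7487 bases for genes below and 4071 bases for all genes tested. Among the shortest 20% of genes 4.82% lay above young and 0.469% below, and among the longest 20% 0.375% lay above and 7.63% below. The median log2 difference between aged and young was 0.28 in the shortest 20% and -0.19 in the longest 20%. The same measure within each library, longest 20% minus shortest 20% in median log2 deviation from the gene means, was 0.171 to 0.409 in young, -0.0434 to 0.0628 in aged IgG2a and -0.476 to -0.154 in aged aPD1ab libraries. These 3 groups do not overlap. When an offset removed the trend with exon length within each library, 241 of the 353 genes above and 224 of the 459 genes below still stood apart, as did all 30 widest-gap genes. Of the genes named here Ighm, Ccl8, Cfp, Ctsk, Nphs1, Col4a1, Lamb2, Xcr1, Nupr1, Rpl22l1, Rpl29 and Cbx2 did not. With this offset 37 of 78 ribosomal proteins were called. The part of RNA quality or library preparation in this trend was not tested.

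**Figure D2:**
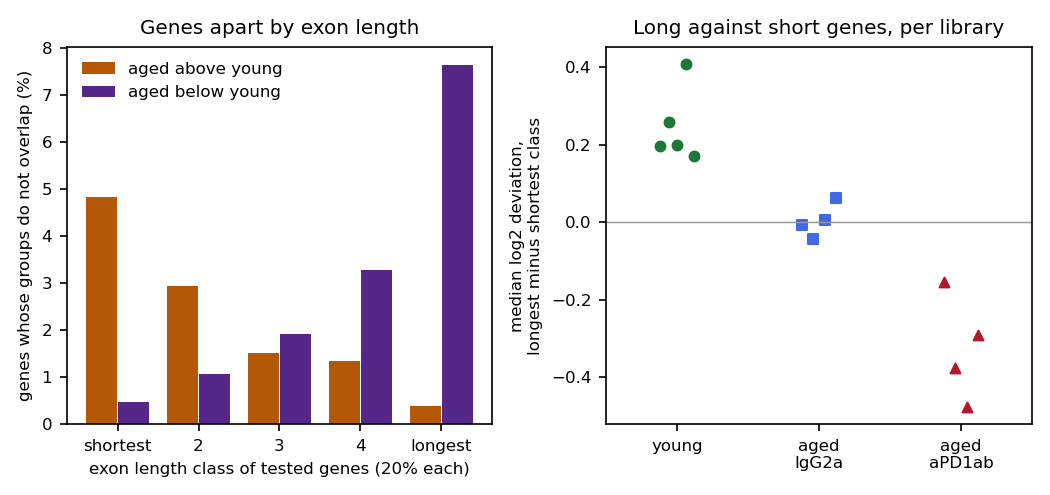
Left, bars give the percentage of tested genes whose aged values lay all above or all below young, in 5 equal classes of exon length from shortest to longest. Right, each point is 1 library and the axis is the median log2 deviation of the longest class minus that of the shortest. Young libraries lie highest (0.171 to 0.409) and aged aPD1ab libraries lowest (-0.476 to -0.154).

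Contractile and mural genes lay below young. Of 10 measured markers of mesangial cells, pericytes and smooth muscle, 5 fell, 0 rose, and the same 5 stood apart (Pdgfrb, Acta2, Myh11, Rgs5 and Notch3). The summed level of the 10 markers was 470.1 ± 65.9 CPM in young and 223 ± 24.6 CPM in aged libraries. The ratio was 0.475 (exact permutation test, two-sided, adjusted p = 0.0132). The raw p of this permutation test, 0.00155, is the smallest possible with 8 and 5 libraries. This sum holds the 5 genes that stood apart, so the test is not independent of the rule. Myh11 (ENSMUSG00000018830, chr16:14194535-14291372), the myosin heavy chain of smooth muscle, was at 79.0, 62.2, 70.1, 80.9 and 51.5 CPM in young mice. Its aged values ran from 3.99 to 24.9 CPM with a median of 19.9, so the young mean was 3.84 times the aged mean. Notch3, a receptor that maintains vascular smooth muscle, stood at 41.4, 31.3, 33.1, 34.1 and 25.6 CPM in young and 9.87 to 14.1 CPM with a median of 11.1 in aged libraries. Rgs5, a regulator of G-protein signaling in pericytes, had 109, 88.6, 99.5, 94.8 and 61.6 CPM in young mice and 13.4 to 45.6 CPM with a median of 35.2 in aged mice. Acta2, smooth muscle actin, had 64.7, 54.1, 61.5, 70.5 and 38.5 CPM in young and 10.3 to 29.8 CPM with a median of 22.4 in aged libraries. The 2 antibody groups overlapped in each of these 4 genes. Leaving out 1 library gave 4 to 6 called members of the list.

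Further genes with the widest gaps below young had varied roles. Mylk, the kinase that phosphorylates myosin light chain, had 116, 108, 124, 151 and 116 CPM in young and 30.3 to 66.6 CPM with a median of 47.5 in aged libraries. Cacna1c, the pore of an L-type calcium channel, had 2.81, 2.14, 3.17, 3.52 and 1.90 CPM in young mice and 0.253 to 1.02 CPM with a median of 0.489 in aged mice. Pde3a, a phosphodiesterase of cyclic nucleotides, stood at 17.1, 17.1, 15.4, 19.9 and 13.05 CPM in young and 3.295 to 8.32 CPM with a median of 5.94 in aged libraries. In these genes the lowest young library stayed above every aged one, in both antibody groups. Adcy1, an adenylyl cyclase, had 23.2, 25.4, 22.3, 34.8 and 28.7 CPM in young and 7.77 to 13.9 CPM with a median of 10.2 in aged libraries. The homeobox factor Meox1 had 4.10, 3.94, 4.13, 3.72 and 3.06 CPM in young mice and 0.843 to 1.80 CPM with a median of 1.54 in aged mice. Rgs7bp, a membrane anchor of regulators of G-protein signaling, had 3.06, 2.90, 2.54, 2.95 and 2.72 CPM in young and 0.0843 to 1.29 CPM with a median of 0.570 in aged libraries, a ratio of young to aged of 4.34. Sulf1, which trims heparan sulfate outside cells, was 2.96 times as high in young mice, Agps of ether lipid synthesis 2.05 times, and Tmc7 3.59 times.

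Podocyte genes fell, with 1 exception among the markers. Of 14 measured podocyte markers 13 were negative and 1 was positive, at a log2 difference of 0.97. DESeq2 and voom each called 1 marker higher, as did edgeR with IgG2a mice alone against young. Over all aged mice edgeR called 9 lower and 0 higher. The 14 markers had a median log2 difference of -1.40, and 7 stood apart, among them Nphs1, Podxl, Clic5, Plce1, Robo2 and Thsd7a. The summed level of the 14 markers was 1410.3 ± 268 CPM in young and 689 ± 190.3 CPM in aged libraries, with 0 overlap. The ratio was 0.489 (exact permutation test, two-sided, adjusted p = 0.0132). This sum holds the 7 markers that stood apart, so the test is not independent of the rule. Nphs1 (ENSMUSG00000006649, chr7:30458315-30487223), nephrin of the slit diaphragm and the antigen of the sort, was at 61.2, 57.4, 43.2, 79.4 and 81.3 CPM in young mice and at 4.15 to 42.7 CPM with a median of 13.3 in aged mice. Podxl, the charged surface protein podocalyxin, had 563.9, 473, 431, 719 and 661 CPM in young mice and 115 to 354 CPM with a median of 189.8 in aged mice. In both genes aPD1ab replicates 1 and 4 were the highest of the aged libraries.

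Wt1, the transcription factor that maintains podocytes, fell without full separation, since its highest aged value of 13.6 CPM passed the lowest young value of 13.2 CPM. Its log2 difference was -1.73 ± 0.45 (SE) (edgeR, adjusted p = 0.031). Synpo, the actin-associated synaptopodin of foot processes, had 154, 126, 112, 180.5 and 182 CPM in young and 29.2 to 116 CPM with a median of 44.1 in aged libraries, a log2 difference of -1.34 ± 0.32 (SE) (edgeR, adjusted p = 0.0229). With the exon length offset the adjusted p of Synpo was 0.0564 in edgeR's test, above the threshold. Thsd7a, a podocyte surface protein known as an antigen of membranous nephropathy, had one of the widest gaps, with 40.8, 34.5, 23.5, 57.5 and 42.2 CPM in young and 4.54 to 14.6 CPM with a median of 7.46 in aged mice. Plce1, a phospholipase whose loss causes nephrotic disease, had 18.7, 16.7, 13.1, 24.8 and 22.3 CPM in young and 2.33 to 9.56 CPM with a median of 4.90 in aged libraries. Clic5, a chloride channel protein of foot processes, was 2.505 times as high in young mice, and Robo2, a guidance receptor that binds nephrin through adaptors, 3.57 times. Vegfa, the growth factor podocytes send to the endothelium, was not called, at a log2 difference of -0.43 ± 0.27 (SE) (edgeR, adjusted p = 0.317). It held 233, 94.3, 102 and 82.3 CPM in aged IgG2a and 216, 234, 165 and 244 CPM in aged aPD1ab libraries, against 213 to 249 CPM in young. Called podocyte markers numbered 5 without young replicate 4 or without young replicate 5, and 6 without any 1 of the other young libraries. With the exon length offset they numbered 7, all lower.

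The slit diaphragm and basement membrane lists moved the same way. Of 15 slit diaphragm and foot process genes, 4 of them also podocyte markers, 6 fell, among them Nphs1, Kirrel, Tjp1, Synpo and Podxl, and 0 rose. The count was 3 without young replicate 4 or 5 and 4 with the exon length offset, which moved the list median from -0.52 to -0.27 on the log2 scale. Tjp1, the junction protein ZO-1, had 88.1, 76.9, 85.2, 120.4 and 92.2 CPM in young and 36.9 to 67.9 CPM with a median of 47.8 in aged libraries. Of 12 genes of the glomerular basement membrane 4 fell (Col4a3, Col4a4, Col4a5 and Lamb2) and 0 rose. Col4a3, a chain of the mature type IV collagen network made by podocytes, had 212, 234, 210.0, 236 and 196 CPM in young mice and 45.2 to 141 CPM with a median of 73.9 in aged mice, a young mean 2.67 times the aged mean. Col4a5, its partner chain, had 47.5, 53.3, 48.0, 62.6 and 45.4 CPM in young and 18.0 to 37.3 CPM with a median of 24.7 in aged libraries. Lamb2, a laminin chain of the same membrane, stood at 121, 108, 91.7, 126 and 107 CPM in young and 56.9 to 87.5 CPM with a median of 67.2 in aged libraries. Col4a1, of the collagen chains common to all basement membranes, stood apart but was not called, with 235, 241, 272, 258 and 212 CPM in young and 85.8 to 199 CPM with a median of 177 in aged mice. These collagen genes are long, and with the exon length offset 3 of the 12 were called.

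Endothelial and intercalated cell markers were lower and tubule markers varied. Of 10 endothelial markers 5 fell (Pecam1, Flt1, Ehd3, Tek and Tie1), with a summed level of 1048 ± 145 CPM in young and 682 ± 178 CPM in aged libraries (exact permutation test, two-sided, adjusted p = 0.0176). Tek, the receptor of angiopoietins, was the 1 endothelial marker to stand apart, with 59.4, 46.2, 62.8, 68.1 and 63.7 CPM in young and 18.6 to 45.5 CPM with a median of 26.7 in aged libraries. Its ligand Angpt2 had 20.1, 18.1, 23.1, 19.2 and 26.5 CPM in young and 8.40 to 17.1 CPM with a median of 11.8 in aged mice. Endothelial calls numbered 1 without young replicate 1, 3, 4 or 5, and 2 with the exon length offset. Of 6 markers of intercalated cells, the acid-base cells of the collecting duct, 3 fell (Atp6v0d2, Slc26a4 and Slc4a9), 1 without young replicate 4, and the sum gave a ratio of 0.623 (exact permutation test, two-sided, adjusted p = 0.0264). Proximal tubule markers gave 0 calls of 14 by edgeR, with 1 at an unadjusted p under 0.05, 0 by DESeq2 and 6 lower by voom. Without aged aPD1ab replicate 2 edgeR called 4 lower, and set against young alone it called 13 lower in IgG2a mice and 0 in aPD1ab mice. Their summed level was 13790.3 to 20762 CPM in young, 2025 to 10336 CPM in aged IgG2a and 10363 to 29636 CPM in aged aPD1ab libraries. Single tubule genes still stood apart. Slco1a1, an organic anion transporter of the proximal tubule, had 100.9, 81.1, 159, 148 and 119 CPM in young and 2.02 to 47.0 CPM with a median of 7.88 in aged mice. Acsm3, a mitochondrial acyl-CoA synthetase, had 104, 117, 149, 138 and 138 CPM in young and 5.89 to 65.4 CPM with a median of 16.5 in aged mice. B3galt2, a galactosyltransferase, lay below young as well, with 3.35, 1.68, 1.63, 2.55 and 2.91 CPM in young and 0 to 0.731 CPM with a median of 0.258 in aged libraries.

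**Figure D3:**
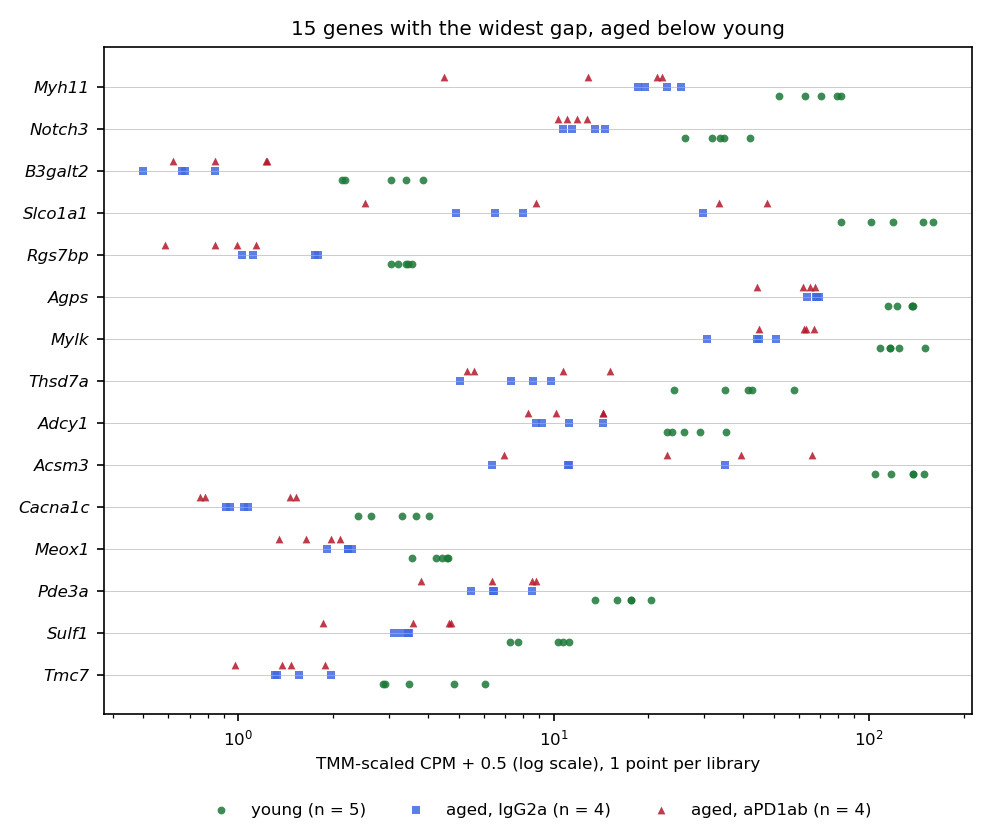
Each row is 1 of the 15 genes with the widest gap below young, and each point is 1 library, on a log axis of CPM plus 0.5. All young circles lie to the right of all aged squares (IgG2a) and triangles (aPD1ab), and the 2 antibody groups overlap in most rows.

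**Figure D4:**
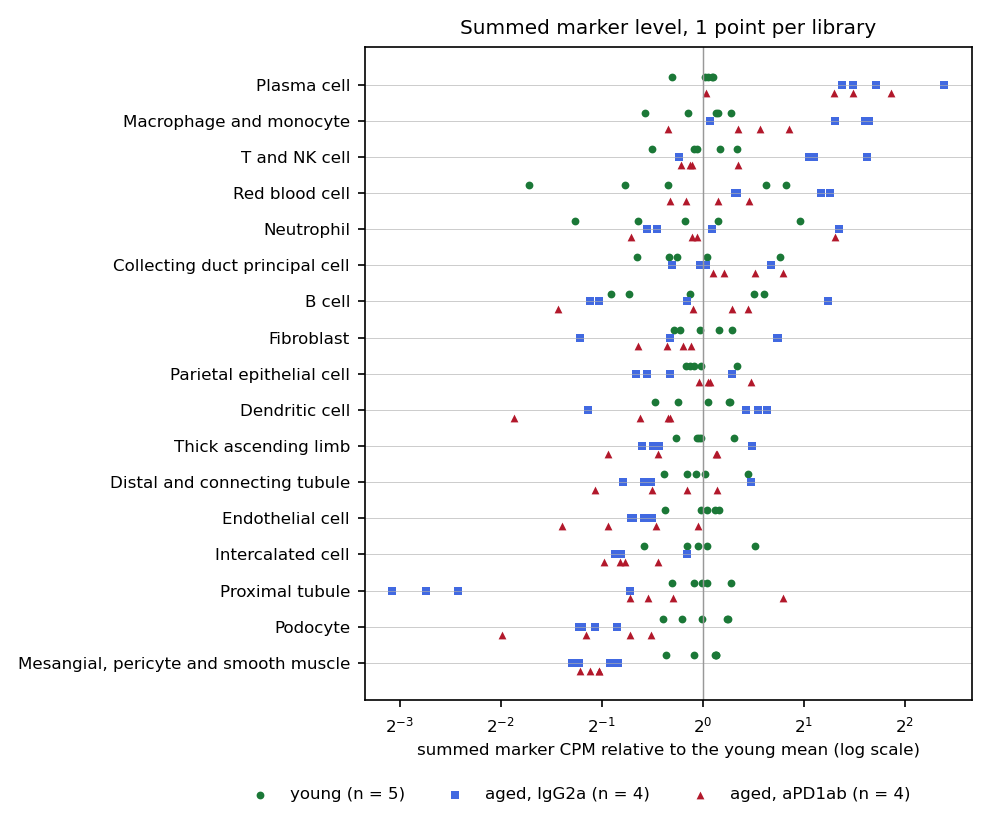
Each row is a list of cell type markers, and each point gives the summed CPM of the list in 1 library relative to the mean of the 5 young libraries, on a log axis. Podocyte and mesangial sums of all 8 aged mice lie left of all young ones, plasma cell sums of 7 aged mice lie to the right, and macrophage and proximal tubule sums overlap the young range.

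Dendritic and lymphoid markers held genes that stood apart in opposite directions. Xcr1, the chemokine receptor of cross-presenting dendritic cells, had 10.4, 10.4, 5.08, 6.64 and 17.0 CPM in young and 1.11 to 4.84 CPM with a median of 3.25 in aged libraries. Zbtb46, a transcription factor of conventional dendritic cells, had 20.4, 19.2, 17.7, 18.3 and 17.7 CPM in young and 4.39 to 14.997 CPM with a median of 11.6 in aged libraries. These were the 2 of 6 dendritic markers called, both lower, with 1 called without any 1 young library, while the summed level of the list gave a ratio of 0.917. Among 12 markers of T and NK cells Cd3d and Cd8b1 rose and Gzma fell, and without young replicate 1, 3 or 4 there was 1 higher and 0 lower. Cd8b1, the beta chain of CD8, had 0.248, 0.244, 0.0793, 0.134 and 0.149 CPM in young mice, 24 counts in all, and 0.538 to 4.84 CPM with a median of 1.13 in aged mice. Gzma, granzyme A of cytotoxic cells, had 1.08, 1.34, 1.19, 0.671 and 0.820 CPM in young and 0 to 0.491 CPM with a median of 0.284 in aged libraries.

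PD-1 and its ligands, the axis the injected antibody addresses, were low or overlapped. Pdcd1, which encodes PD-1, had 0.0827, 0.549, 0.238, 0.0671 and 0.820 CPM in young mice, 50 counts in all, and 0.240 to 1.08 CPM with a median of 0.631 in aged mice, a log2 difference of 0.88 ± 0.53 (SE) (edgeR, adjusted p = 0.307). Cd274, which encodes PD-L1, had 19.1, 29.0, 14.997, 13.1 and 19.2 CPM in young and 13.4 to 44.0 CPM with a median of 26.1 in aged libraries, a log2 difference of 0.55 ± 0.27 (SE) (edgeR, adjusted p = 0.2). Pdcd1lg2, which encodes PD-L2, had 0.124, 0.549, 0.476, 0.235 and 0.895 CPM in young and 0.431 to 1.80 CPM with a median of 0.666 in aged libraries, a log2 difference of 0.99 ± 0.49 (SE) (edgeR, adjusted p = 0.212). None of these 3 passed the threshold, which does not show that they did not differ. Of 11 measured checkpoint genes Lag3 and Cd28 rose. Set against young alone, edgeR called 6 of the 11 higher in IgG2a mice and 1 in aPD1ab mice. The list medians were 1.04 and 0.43 on the log2 scale. In that list 0 were called without young replicate 1, 3 or 4, 4 without aged aPD1ab replicate 2 and 1 with the exon length offset.

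Of 61 lists examined, 22 had called members in the higher direction only, 14 in the lower direction only, 8 in both and 17 in neither. The shares of all genes tested, 4.93% called higher and 4.60% lower, are the background for edgeR's counts over all 13 libraries. Other fits have their own background. Of all genes, DESeq2 called 1705 higher and 1062 lower, and voom 1514 and 1805. Without young replicate 4, edgeR called 187 and 181. Set against young alone, the shares were 9.05% and 8.38% in IgG2a mice and 12.4% and 9.97% in aPD1ab mice. Without aged IgG2a replicate 1, the library that lay apart from its group, called podocyte markers numbered 9, mesangial 5, ribosomal 76 and immunoglobulin 8, and without aged aPD1ab replicate 2 they numbered 9, 5, 76 and 9. Without young replicate 4 they numbered 5, 4, 8 and 4. Lists without a call by edgeR included 20 genes of mitosis (1 at an unadjusted p under 0.05, 0 by DESeq2 and 0 by voom) and 10 of MHC class II (0 at an unadjusted p under 0.05, 0 by DESeq2 and 0 by voom). The 16 genes of MHC class I also gave 0 calls, with 7 at an unadjusted p under 0.05. DESeq2 called 3 of them higher, voom 1 higher and 1 lower, and edgeR without aged aPD1ab replicate 2 called 2 higher. Set against young alone, edgeR called 6 of the 16 higher in IgG2a mice, and 1 higher and 1 lower in aPD1ab mice. The 75 nuclear genes of oxidative phosphorylation gave 0 calls, with 1 at an unadjusted p under 0.05, 1 by DESeq2 and 2 by voom. Set against young alone, edgeR called 61 of these 75 higher in aPD1ab mice, with a list median of 0.52 on the log2 scale, and 0 in IgG2a mice, with a median of -0.20. Of 30 interferon-stimulated genes Bst2 was called, higher, and 0 were called without any 1 young library.

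**Figure D5:**
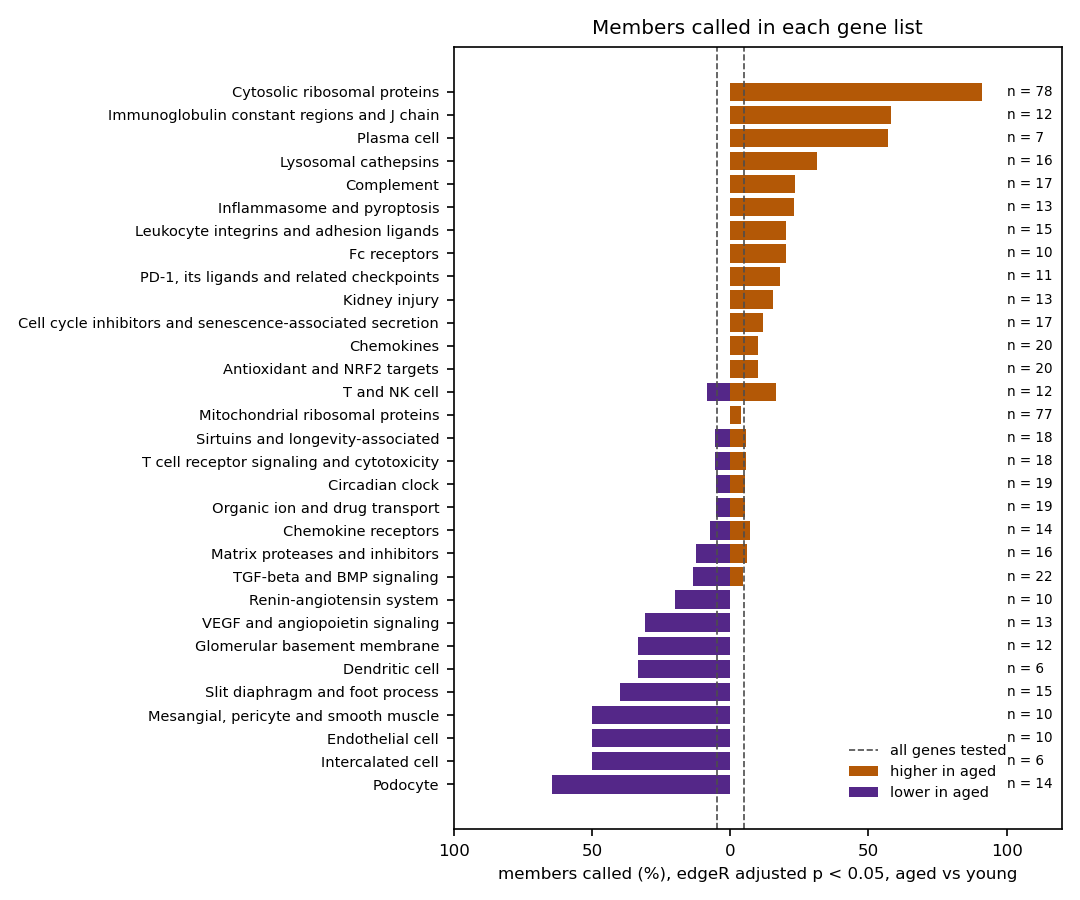
Bars give the percentage of each list's measured members called higher (right) or lower (left) in aged mice at an edgeR adjusted p under 0.05, for lists with 2 or more called members, with the number of members at the right. Dashed lines mark all genes tested, 4.93% higher and 4.60% lower, and ribosomal proteins (71 of 78) and podocyte markers (9 of 14) reach furthest to either side.

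The 2 antibody groups were then set against the young mice separately, with the same 5 young libraries in both. Aged IgG2a mice gave 1443 genes higher (9.05% of 15953) and 1337 lower (8.38%), and aged aPD1ab mice 1984 higher (12.4% of 15986) and 1594 lower (9.97%). Genes above young had a median log2 difference of 0.57 with IgG2a and 0.66 with aPD1ab, and genes below young of -0.60 and -0.74. For podocyte markers the medians were -1.72 with IgG2a and -1.10 with aPD1ab. Mesangial and smooth muscle markers gave -1.18 and -1.25, and immunoglobulin genes 3.25 and 2.43. Macrophage markers gave 1.25 and 0.28, and proximal tubule markers -1.86 and 0.00. The list medians and counts of calls were not tested against each other.

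Between the antibodies, edgeR called 0 of 15530 genes at an adjusted p under 0.05, and the lowest adjusted p was 0.102. At an unadjusted p under 0.05 there were 4341 genes, 28.0% of those tested. Without IgG2a replicate 1, edgeR called 2702 genes higher with aPD1ab and 2086 lower, DESeq2 on all libraries called 1390 and 983, and 1 fit over 3 groups called 1861 and 1002. Of all genes tested, 11.8% had aPD1ab values that did not overlap the IgG2a values. Among the 353 genes above young 51 did not overlap (14.4%), 49 of them further above with aPD1ab. Among the 459 genes below young 57 did not overlap (12.4%), 54 of them further below with aPD1ab. Both shares were near that of all genes, and a gene that stands apart and also differs between antibodies was still beyond young in both. The direction was not split for all genes without overlap, so whether these splits are particular to the genes that stood apart was not tested. The median log2 difference of aPD1ab from IgG2a was 0.157 in the shortest class of exon length and -0.171 in the longest. The part of this length trend in the splits was not tested. Among the genes named for a large ratio between the antibody means, Spic held 30.1, 82.7, 37.3 and 37.95 CPM with IgG2a and 28.6, 14.4, 14.6 and 21.9 CPM with aPD1ab. The antibody groups did not overlap in Spic, which was higher with IgG2a. Lmx1b, a transcription factor of podocytes, held 1.76, 0.204, 1.08 and 0.415 CPM with IgG2a, 3.44, 0.732, 2.72 and 3.79 CPM with aPD1ab and 4.25 to 8.69 CPM in young. Akr1c14, an aldo-keto reductase, held 16.4, 4.42, 8.72 and 3.94 CPM with IgG2a, 18.8, 35.4, 17.0 and 3.68 CPM with aPD1ab and 37.0 to 45.2 CPM in young.

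As a set, the genes that stood apart were mostly protein-coding, 316 of 353 above and 443 of 459 below, and those above held 9 variable and 3 constant immunoglobulin genes. The mean of aged libraries was over 2-fold the young mean in 96 genes above, and under it by over 2-fold in 147 genes below. The median ratio of the aged to the young mean was 1.49 for genes above, and that of the young to the aged mean was 1.65 for genes below, so most members differed by less than 2-fold. At the edge of the rule the groups nearly touched. Nupr1, a stress-response cofactor, was just inside, with a highest young value of 19.8305 CPM and a lowest aged value of 19.8406 CPM. Rab20, a small GTPase, was just outside, with 22.4025 and 22.3985 CPM. Among genes below, Cbx2, a Polycomb protein, was just inside, with a lowest young value of 3.3196 CPM and a highest aged value of 3.3194 CPM. Lrrk2, a kinase, was just outside, with 91.8040 and 91.8232 CPM. With a gap of at least 1.5-fold between the groups, 38 genes above and 27 below would remain. Scaled by total count alone, 75 genes lay above and 1060 below, and the median log2 difference of all genes shifted to -0.20.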

How the data were processed

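The authors deposited whole-number read counts per Ensembl gene, 1 column per library. The submitters' processing notes name HISAT2, featureCounts and GRCm38 (mm10), with versions and strand setting not given in the sources used here. Of 15 columns 13 were used, and 2 were not. Column groups were read from the mouse numbers beside the points of the study's principal component plot, as no label names the columns, and no batch is named. Each mouse is 1 library, so p-values measure the spread between mice. With the aged mice pooled, the spread among them also holds any difference between the antibodies.

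Counts were scaled by TMM and tested in edgeR 4.0.16 (R 4.3.3, limma 3.58.1) by the robust quasi-likelihood test, aged against young, with Benjamini-Hochberg adjustment and a threshold of 0.05, for 16034 genes passing filterByExpr. Gene names and exon lengths came from GENCODE M21. Summed marker CPM was compared by an exact permutation test over 13 libraries. DESeq2 1.42.0 and limma voom were alternatives. Scripts were tested on simulated data. The offset for exon length, in 20 bins of genes, and the promoter motif were chosen after seeing the data. Floors and depth cover counting error only: 3 counts are about 0.124 CPM in young libraries. Genes named are the 15 widest gaps in each direction, up to 4 members per list that stood apart, fixed podocyte and PD-1 genes, 2 genes on each side of the rule's edge and 5 genes per direction with the largest ratio between antibodies, and further members of the lists where a sentence counts them. Some genes that met these rules are not reported here. The members and lists were chosen with earlier results of these data known.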

Additional observations from a re-analysis of the deposited data

Results flagged for a closer look

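In groups of 4 to 10 libraries, a value was singled out where its gap to the nearest other value, as a share of the group's range, passed Dixon's 95% critical value. Of 408 groups of values examined (85 genes and 17 summed marker lists), 43 did so, and chance gives about 1 in 20. Aged IgG2a replicate 1 held 14 of them and aged aPD1ab replicate 2 held 6. The number after each item is that share.

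Aged IgG2a replicate 1 was the highest of the aged IgG2a libraries in Grem1 (0.873, at 13.2 CPM), Slco1a1 (0.877, at 29.4 CPM), Acsm3 (0.833, at 34.5 CPM), Vegfa (0.866, at 233 CPM), Col4a3 (0.927, at 122.8 CPM), Col4a5 (0.888, at 37.3 CPM), Pigr (0.847, at 365 CPM), Enpep (0.868, at 69.5 CPM), the summed markers of proximal tubule (0.862, at 10336 CPM), the summed markers of thick ascending limb (0.892, at 9363 CPM), the summed markers of distal and connecting tubule (0.849, at 10509 CPM) and the summed markers of intercalated cells (0.926, at 417 CPM). It was the lowest of the aged IgG2a libraries in Rpl22l1 (0.872, at 15.2 CPM) and Lyz2 (0.895, at 926 CPM). Aged aPD1ab replicate 2 was the highest of the aged aPD1ab libraries in Vsig4 (0.972, at 28.3 CPM) and C4b (0.871, at 159.8 CPM). It was the highest of all 8 aged libraries in Vsig4 (0.744, at 28.3 CPM), Grem1 (0.56, at 29.4 CPM), Lcn2 (0.528, at 20.3 CPM) and the summed markers of proximal tubule (0.569, at 29636 CPM).

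Aged IgG2a replicate 2 was the highest of the aged IgG2a libraries in Spic (0.851, at 82.7 CPM). It was the highest of all 8 aged libraries in Spic (0.655, at 82.7 CPM), Lgals3 (0.535, at 343 CPM) and Ctsb (0.588, at 2307 CPM). Aged IgG2a replicate 3 was the highest of the aged IgG2a libraries in Acta2 (0.881, at 29.8 CPM) and Nupr1 (0.979, at 25.6 CPM). Aged IgG2a replicate 4 was the highest of the aged IgG2a libraries in Tek (0.874, at 35.3 CPM). It was the highest of all 8 aged libraries in Cd8b1 (0.621, at 4.84 CPM). Aged aPD1ab replicate 1 was the highest of the aged aPD1ab libraries in Itgad (0.843, at 3.32 CPM). It was the lowest of the aged aPD1ab libraries in Xcr1 (0.894, at 1.96 CPM). Aged aPD1ab replicate 3 was the highest of the aged aPD1ab libraries in the summed markers of T and NK cells (0.835, at 26.6 CPM). It was the lowest of the aged aPD1ab libraries in Col4a1 (0.932, at 85.8 CPM). Aged aPD1ab replicate 4 was the highest of the aged aPD1ab libraries in Pdcd1lg2 (0.848, at 1.80 CPM). It was the lowest of all 8 aged libraries in Agps (0.686, at 43.6 CPM). Young replicate 2 was the highest of the young libraries in Vsig4 (1, at 0.0610 CPM), C4b (0.724, at 17.0 CPM) and Igf1 (0.784, at 14.7 CPM). It was the lowest of the young libraries in Jchain (0.752, at 12.0 CPM) and the summed markers of plasma cells (0.763, at 149 CPM). Young replicate 4 was the highest of the young libraries in Grem1 (0.864, at 0.872 CPM), Akr1c14 (0.721, at 45.2 CPM), Vps54 (0.796, at 71.2 CPM) and the summed markers of parietal epithelial cells (0.742, at 387 CPM).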

How the results depend on the processing

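The count of genes higher in aged mice (791) became 1705 by DESeq2, 1514 by voom, 456 with no filter on low counts and 1256 in 1 fit over 3 groups, and the count lower (737) became 1805 by voom, 489 with no filter, 1367 over 3 groups and 374 with the exon length offset. Against young, aged IgG2a mice gave 2289 genes higher and 2166 lower by DESeq2. Between antibodies DESeq2 gave 1390 higher and 983 lower with aPD1ab, and the fit over 3 groups 1861 and 1002. Genes standing apart numbered 75 above and 1060 below by total count, 38 and 27 with a gap of 1.5-fold, and 254 below with the exon length offset. Leaving out 1 library gave 187 to 1351 genes higher and 181 to 1004 lower in all aged mice, 260 to 3584 and 293 to 3813 in IgG2a mice, 1293 to 2122 and 1024 to 1746 in aPD1ab mice, and 0 to 2702 and 0 to 2086 between antibodies, where calls appeared only without IgG2a replicate 1. It gave 372 to 631 genes above and 471 to 775 below, more than with all libraries because the rule then asks less, and 3 to 7 marker sums past the threshold. Marker sums that changed sides of 1 were near it: fibroblast (1.00 by DESeq2 size factors, 1.01 without immunoglobulin and mitochondrial genes, 0.876 to 1.053 leaving out 1 library), parietal epithelial (0.9148 to 1.043), dendritic (0.8259 to 1.009) and B cell (0.8204 to 1.164). Of 1445 values tried for the genes named, 0 changed direction. Most of these genes were named because they stood apart, so leaving out a library could hardly reverse them. That count is therefore no measure of how firm they are. The causes of the changes with processing listed above were not tested. No paired analysis was possible because replicate numbers only name columns. With 5 young mice and 19912969 to 32717100 counts per aged library, genes of under about 1 CPM rest on few reads.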

Other observations

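Genes of redox balance, peptide hormone processing and longevity had single members that moved. Of 20 antioxidant genes and NRF2 targets Hmox1 and Slc7a11 rose and 0 fell, and without young replicate 4 0 were called. Slc7a11, the cystine transporter that feeds glutathione synthesis, had 0.579, 0.702, 0.516, 0.503 and 0.447 CPM in young and 0.760 to 3.59 CPM with a median of 2.61 in aged libraries, and stood apart. Of 10 genes of the renin-angiotensin system Enpep and Mme, both membrane peptidases that cut angiotensins, fell and 0 rose, and without young replicate 4 the count was 0. Enpep had 122.7, 127, 138, 159 and 140.2 CPM in young and 19.5 to 94.7 CPM with a median of 57.6 in aged libraries. Kl, the gene of the co-receptor Klotho, was the 1 of 8 Klotho and FGF receptor genes called, and it was lower. No gene of that list was called by edgeR without young replicate 3 or 4, or with the exon length offset. In the list of TGF-beta and BMP signaling Grem1 rose and Tgfbr3, Bmpr1a and Bmpr2 fell, 4 of 22 in all, and without young replicate 4 there was 1 higher and 0 lower. Of 13 mitochondrially encoded mRNAs mt-Co2 was called, higher, and 0 were called without any 1 young library. Set against young alone 10 were called higher in IgG2a mice and 0 in aPD1ab mice, with a list median of 1.26 with IgG2a and 0.23 with aPD1ab on the log2 scale against the same young mice.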
